A study of Mus musculus with 11 samples.

Results

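Pi16/Pcolce2 fibroblasts are one of 3 fibroblast types that the study's authors named in mouse colonic mucosa. They were taken here as every cell whose deposited full annotation read Mesenchyme-Fibroblast-Pi16/Pcolce2, which gave 4316 cells. The other fibroblasts were 3103 Adamdec1/Bmp4 cells and 312 cells without a subtype name, so that these cells were 4316 of 7731 fibroblasts and of 55603 cells of all kinds. Pi16 (chr17:29317680-29330593, plus strand, mm10) encodes peptidase inhibitor 16, and Pcolce2 (chr9:95637601-95698096, plus strand, mm10) encodes an enhancer of the protease that trims procollagen. In mice, fibroblasts with Pi16 and the surface glycoprotein Cd34 lie around vessels and in loose connective tissue of many organs and are known as an adventitial state. In the gut wall, fibroblasts build the matrix, send Wnt and bone morphogenetic protein (BMP) signals to the crypts, and release cytokines and chemokines when the tissue is inflamed.

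The study profiled dissociated colonic mucosa by single-cell 3' RNA sequencing on the 10X Genomics platform, with 1 library per group. The Il10-/- library came from mice about 10 months old that lack interleukin 10, an anti-inflammatory cytokine, and whose faecal lipocalin, a marker of gut inflammation, was raised. The 9 dextran sulfate sodium (DSS) libraries came from wild-type mice about 2 months old that received 3% DSS, which injures the colonic epithelium, for 6 days. Counted from the start of exposure, sampling fell on day 6 or 7, on day 9, 11 or 12, on day 16, 18 or 19, or on day 23. The uninjured library came from wild-type mice about 2 months old. All mice came from Jackson Laboratory, and each library pooled 3 to 8 of them. Colons were stripped of their myenteric layers before digestion, and dying cells were removed with antibodies against annexin V. The libraries of days 7, 11 and 18 carry the batch label C and were run fresh. The others carry batch A in the authors' cell table and no batch in the sample labels, and were frozen, thawed and run together. The same cell table gives 3 mice for each fresh and 8 for each frozen library, so pool size, storage and batch cannot be told apart. With 1 pool per group, differences between a pair of groups had no replicate check and were not tested, and Il10-/- genotype, age and pool cannot be told apart. The only replicated comparison is the trend over the 9 DSS libraries, which were separate pools.

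Each library held 166 (day 16) to 918 (day 7) Pi16/Pcolce2 cells, with 609173 to 9882374 transcript counts in sum. These counts are of unique molecular identifiers (UMIs), each standing for 1 captured RNA molecule, and levels are given in CPM, the counts of a gene scaled to a common library total, from the summed cells. The median cell held 7991 to 13908.5 UMIs in the 3 fresh libraries and 2298 to 5861 in the frozen ones, and median mitochondrial shares were 3.47% to 8.81%. A cell barcode shared with another library was found in 95 of the 4316 cells. Among all libraries, 293 cells (6.79%) had under 1000 UMIs. Counts from other cells were present. Summed marker levels of neutrophils were 919 CPM in Il10-/-, 277 (day 23) to 4903 (day 11) in DSS and 53.9 in uninjured Pi16/Pcolce2 cells. Those of plasma cells were 2847 CPM in Il10-/-, 243 to 8308 in DSS and 1156 in uninjured cells, and those of columnar epithelium were 373, 290 to 1101 and 871 CPM in the same order. Smooth muscle markers reached 353 CPM (day 11), mesothelial markers 210.5 CPM (day 18) and monocyte or macrophage markers 198 CPM (Il10-/-). Enteric glial markers reached 181 CPM (uninjured) and lymphatic endothelial markers 137 CPM. T cell, B cell, blood endothelial and interstitial cell of Cajal markers summed to at most 53.0 CPM in any library, the glial gene Sox10 was at 0 throughout, and so were the mast cell and eosinophil genes Fcer1a and Epx.

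The type markers set these cells apart in every library. Pi16 and Pcolce2 together reached 1718 CPM in Il10-/- cells, 460 (day 9) to 1671 (day 16) CPM in DSS cells and 2097 CPM in uninjured cells. In Adamdec1/Bmp4 fibroblasts the sums were 73.1, 9.73 to 36.2 and 76.7 CPM in the same order. Thinned shares of cells, here and below, were taken in cells of at least 2000 UMIs, each thinned to 2000. This left out 130 of 592 uninjured, 99 of 235 day 19 and 30 of 918 day 7 Pi16/Pcolce2 cells. Of the cells kept, a Pi16 UMI was seen in 69.7% in the uninjured and 65.7% in the Il10-/- library. It was seen in 34.5%, 38.3%, 29.4% and 41.0% on days 6, 7, 9 and 11, and in 58.8% to 68.6% from day 12 on. In Adamdec1/Bmp4 cells, whose median UMIs were 10074 to 14741 in fresh and 2788 to 4483.5 in frozen libraries, the thinned share was 5.42% in the Il10-/- and 3.68% in the uninjured library. The 4 libraries of days 6 to 11 thus stood lowest for the gene that names the type, but neither marker passed the test for a day trend (Pi16 1.12 ± 0.31 log2 per 10 days, adjusted p = 0.116, and Pcolce2 0.53 ± 0.35, adjusted p = 0.536, by edgeR's quasi-likelihood test, with standard errors). The 8 general fibroblast markers, such as collagen I and decorin, summed to 31745 CPM in Il10-/-, 39570 to 68972 CPM in DSS and 29002 CPM in uninjured cells.

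Outside these fibroblasts, Pi16 was highest in neutrophils, at 128 CPM over all libraries against 772 CPM here, and it was between 115 and 168 CPM in the neutrophils of each of the DSS and Il10-/- libraries. Pcolce2 was at 346 CPM here and at most 11.0 CPM in any other type. Over the authors' 28 types, the genes whose log2 level ran most like that of Pi16 were Tnfaip6, a hyaluronan-binding protein (r = 0.795), Ifi204 (0.738), the complement factor C3 (0.730), Arap1 (0.728) and Emilin2 (0.718). These values describe 28 types that share libraries and depth.

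Pi16/Pcolce2 cells made up a varying share of the fibroblasts, with no trend over the days that passed the test. They were 76.2% (73.0% to 79.1%) of fibroblasts in the uninjured library and 77.1% (72.4% to 81.3%) on day 6, with exact Clopper-Pearson 95% intervals that cover counting error only. The share was 45.2%, 58.1%, 44.6%, 76.2%, 54.6%, 45.6%, 44.0% and 62.8% on the later DSS days in order, from day 7 to day 23. It was 68.5% (65.2% to 71.7%) in the Il10-/- library. The 3 fresh libraries lay within 44.6% and 45.6%, and the 6 frozen DSS libraries between 44.0% and 77.1%. Pearson's r with day was -0.24 over the 9 DSS libraries (exact two-sided permutation p = 0.519, adjusted over 3 fibroblast types p = 0.607), and Spearman's rho was -0.25 (exact p = 0.521, adjusted p = 0.781). Within the 6 frozen libraries r was -0.56 (exact p = 0.251). Leaving out days 19 and 23, which lie farthest from the median day, gave -0.34 (exact p = 0.447). Without day 6 alone it was 0.05 (exact permutation p = 0.906). Of all cells, they were 9.55% in the Il10-/- library, 3.15% (day 11) to 12.1% (day 7) in the DSS libraries and 32.5% in the uninjured library, a share that also moves with every other cell type recovered.

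**Figure D1:**
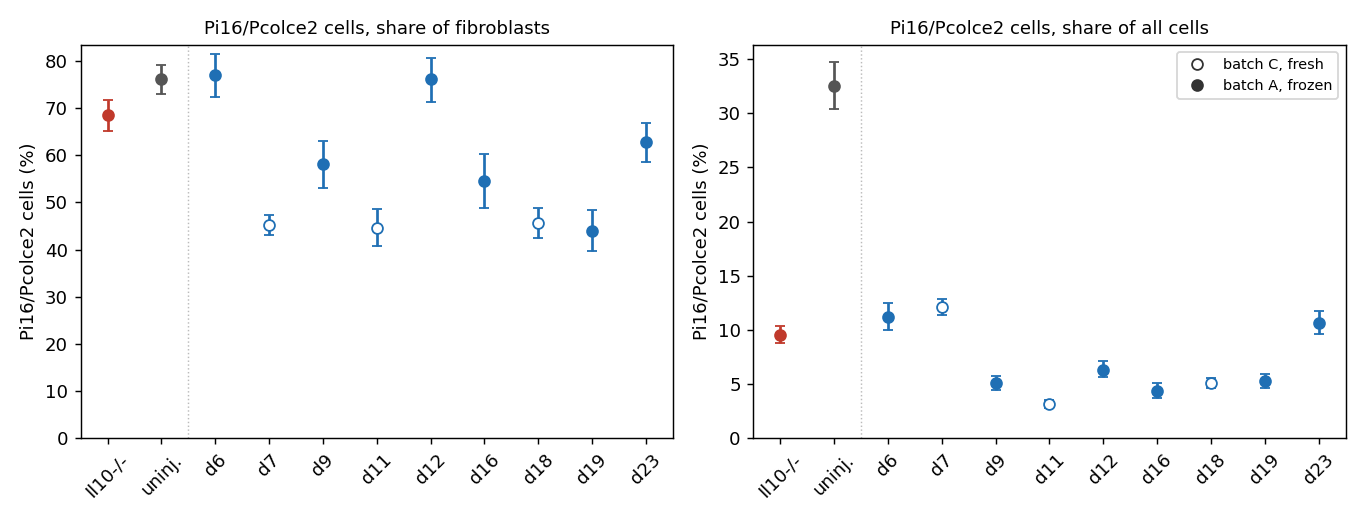
Share of Pi16/Pcolce2 cells among fibroblasts (left) and among all cells (right) in each library, in percent, with exact 95% Clopper-Pearson intervals. Open points are the fresh batch C libraries. The uninjured library stands at 32.5% of all cells, against 3.15% to 12.1% in the DSS libraries, while the shares of fibroblasts overlap.

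Against Adamdec1/Bmp4 fibroblasts, Pi16/Pcolce2 cells held more Ebf1, Ptx3, Gdf10 and adventitial genes and far less Adamdec1, Mmp10, Mmp13 and Bmp5. The type was drawn from these same genes, so the levels are a description with no test. Of 9504 genes compared, 494 (5.2%) were higher and 1057 (11.1%) lower in every one of the 11 libraries, and 43 (0.452%) and 79 (0.831%) differed at least 4-fold in every library. Ebf1, a transcription factor, had a UMI in 82.0% of Pi16/Pcolce2 cells and 5.45% of Adamdec1/Bmp4 cells, with mean levels of 648 and 17.5 CPM. Its log2 ratio was 5.20 in the median library and 3.62 to 6.27 over libraries. Ptx3, the long pentraxin of innate defence, averaged 499.6 and 10.7 CPM in the same order (median log2 ratio 5.29).

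Gdf10, a BMP-family ligand, had a median log2 ratio of 5.53, and Sfrp4, a secreted Wnt antagonist, one of 5.95. Sema3d, a guidance cue, stood at 5.19, and Ackr4, a scavenging receptor for the chemokines of lymphoid homing, at 5.23. The enzymes Galnt16, which starts O-linked sugar chains, Cmah, which makes N-glycolylneuraminic acid, and Inmt, an amine N-methyltransferase, stood at 6.26, 5.62 and 5.17, and Lrrn4cl and Islr2 at 5.33 and 5.13. Several of these ratios rest on near-empty Adamdec1/Bmp4 libraries: Galnt16 and Islr2 had no count in 7 of them. Of the 20 adventitial genes listed, 18 could be compared and 14 were higher in every library, with a median log2 ratio of 1.36.

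On the reverse side stood Adamdec1, Mmp10, Mmp13, Nrg1, Bmp5 and Wnt4. Adamdec1 itself, a secreted protease, averaged 6.68 CPM in Pi16/Pcolce2 cells and 1758 CPM in Adamdec1/Bmp4 cells (median log2 ratio -7.67). The matrix metalloproteinases Mmp10 and Mmp13 stood at -7.28 and -6.76, the epidermal growth factor-like ligand Nrg1 at -6.54, and the ligands Bmp5 and Wnt4 at -6.21 and -5.86. Syt13, Ces1g, Fam162b, Agt (angiotensinogen), Mt3 and Trpa1, an irritant-gated ion channel, ranged over -6.30 to -5.90. Of the BMP and transforming growth factor genes, 7 of 18 compared were higher and 9 lower in every library. Of the cytokine list, 3 of 17 were higher and 5 lower.

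The fibroblasts without a subtype name were shallow cells. Their median UMIs were 681 to 1181 per library, and their median mitochondrial shares were 27.3% to 46.3%. In the 9 libraries with at least 20 of them they held few counts of most genes named here, so the ratios rest on small numbers, with 0.5 counts added. Pi16 had 23 counts in the unnamed cells and none in 2 of the libraries, and was higher in Pi16/Pcolce2 cells by a median log2 ratio of 3.75. On the same side stood the monocyte chemoattractant Ccl7 (4.55, 44 counts in unnamed cells), the matrix proteins Cilp (3.86, 8 counts) and Col8a1 (3.70, 14 counts) and the tetraspanin Cd81 (3.62, 11 counts). The protease Prss23 (4.40, 7 counts) and the matrix protein Aspn (3.87, 16 counts) had no count in 4 of the 9. No ratio is given for Pcolce2, the alarmin Il33, the antiangiogenic serpin Serpinf1, the prostacyclin synthase Ptgis and the dipeptidase Dpep1, which had 2 to 7 counts in unnamed cells and none in 5 to 7 of the libraries. Adamdec1 (-7.22), Bmp5 (-6.37), Wnt4 (-5.46) and Igfbp3 (-5.06), with counts in the unnamed cells of all 9 libraries, were lower than there in the median library, and an Adamdec1 UMI was seen in 2.49% of Pi16/Pcolce2 cells and 33.3% of unnamed cells. Pappa (-5.37) and Lama5 (-5.23) had no count in 1 library of unnamed cells. Mmp10, Syt13, Il1rl1, Bdkrb2, Grk3 and Prdm1 had none in 2 to 5 of them, and no ratio is given.

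In every DSS library the median of the inflammatory cytokine list in Pi16/Pcolce2 cells stood above the uninjured library, by 0.98 (day 16) to 4.41 (day 6) log2 units. Of the members compared, 10 of 15 were at least 4-fold higher on day 6 (background 2.57%) and 4 of 10 on day 16 (background 1.27%), and 1 of 16 on day 11 and 1 of 14 on day 18 were at least 4-fold lower. Over the median of the 9 DSS libraries, 181 of 8434 genes compared (2.15%) were at least 4-fold higher and 44 (0.522%) at least 4-fold lower than in uninjured cells, with no replicate check. Library by library, 2.57%, 5.47%, 3.29%, 7.36%, 2.52%, 1.27%, 3.9%, 1.78% and 1.41% of genes compared were at least 4-fold higher on the 9 DSS days in order, and 1.97%, 1.09%, 2.49%, 1.23%, 1.26%, 2.13%, 0.533%, 1.47% and 0.692% at least 4-fold lower. Saa3, an acute-phase serum amyloid, had 552, 3354 and 9830.3 CPM in the lowest, median and highest DSS library, against 0.369 CPM (1 count) in the uninjured library. The day 6 ratio was 22862, with a counting interval of 4102 to 903076. Cxcl5, a neutrophil-attracting chemokine, had 59.8, 229 and 1477 CPM against 0.738 CPM (2 counts). For both genes the DSS and uninjured levels did not overlap, which their choice as the highest ratios to this 1 library favours.

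Of the rest of the leading genes, Csf3, the granulocyte colony-stimulating factor, was at 135, 95.3 and 132 CPM on days 6, 7 and 9 and had 0 counts in uninjured cells, which makes day 6 at least 122-fold higher against a floor of 3 counts. Ereg, an epidermal growth factor receptor ligand, had 28.5 to 505 CPM in DSS cells and 1.84 CPM in uninjured cells. Chl1, a neural adhesion molecule, had 110.0 to 414 CPM in DSS cells and 0 counts in uninjured cells. Serpina3m, a secreted protease inhibitor, had 52.8 to 163 CPM against 0 counts, Adamts15, a proteoglycan-cleaving metalloproteinase, 32.9 to 110.0 CPM against 0.369, and Sfrp2, a Wnt modulator, 5.90 to 86.8 CPM against 0.369. For each of these genes every DSS value lay above the uninjured value.

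Lower in DSS cells were Lepr, the leptin receptor, with 3.53 to 52.5 CPM in DSS cells and 96.6 CPM in uninjured cells, and Qpct, which caps peptides with pyroglutamate, with 17.9 to 51.3 and 237 CPM. Efhd1, a mitochondrial calcium-binding protein (2.39 to 27.2 and 67.1 CPM), Stmn4, a stathmin (0 to 12.0 and 71.2 CPM), Pthlh, parathyroid hormone-like hormone (1.01 to 17.5 and 31.4 CPM), and Gstp2, a glutathione transferase (0 to 8.42 and 15.5 CPM), showed the same. Angptl1, an angiopoietin-like protein, overlapped, since its day 11 value of 52.0 CPM exceeded the uninjured 35.4 CPM. Dbp, an output gene of the circadian clock, was at 7.39, 17.2 and 10.4 CPM in the fresh libraries of days 7, 11 and 18, 29.5 to 205 CPM in the frozen DSS libraries and 380.3 CPM in uninjured cells, so that its level moved with the batch label, whose part was not tested.

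Over the days after injury, Il6, Lif and Ptgs2 fell in these cells, and Cd34, Igfbp6 and 6 other adventitial genes rose. The test was edgeR's quasi-likelihood test on counts summed per library, with day and batch label as terms and Benjamini-Hochberg adjustment over all genes tested. Of 8945 genes, 229 (2.56%) passed at an adjusted p under 0.05, with 102 rising (1.14%) and 127 falling (1.42%), and 1468 had an unadjusted p under 0.05. The count depends on single libraries: it was 67 without day 18, 79 without day 6, 112 without day 9 and 126 without day 19, but 400 without day 11 and 506 without day 7, and 36 with no batch term, 35 of them shared. Of the 56 trend genes followed through every alternative, 11 kept their call in each that gave a value. With no batch term 37 lost it, all but these 11 and Lif, Adhfe1, Nid2, Fem1b, Serpina3m, Adgrg2, Efhd1 and Gli1. Slopes below are in log2 units per 10 days, with standard errors, over 9 libraries.

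The genes that fell and kept their call in every alternative that gave a value, 15 for Adamts9 and 17 for each of the others, were Adamts9, Angptl4, Mid1, Rasl11a, Srpx and Col4a1. Adamts9, a matrix metalloproteinase with thrombospondin repeats, was at 0.369 CPM in uninjured cells and at 29.5, 25.5, 19.9, 17.2, 17.5, 4.92, 5.44, 4.09 and 3.19 CPM on the 9 DSS days in order (slope -2.12 ± 0.22, adjusted p = 9.45e-05). All 5 libraries up to day 12 stood above the 4 later ones. Angptl4, an inhibitor of lipoprotein lipase, was at 3.69 CPM in uninjured cells and at 111, 65.8, 77.3, 56.2, 45.7, 19.7, 34.7, 20.4 and 12.0 CPM on the same days (slope -1.68 ± 0.18, adjusted p = 9.45e-05), which separates the same libraries. Col4a1, a basement membrane collagen chain, had 419, 906 and 1265 CPM in the lowest, median and highest DSS library and 240.5 CPM in uninjured cells (slope -0.97 ± 0.15, adjusted p = 0.00182). Mid1, a microtubule-bound ubiquitin ligase, fell with a slope of -1.33 ± 0.18 (adjusted p = 0.000669). Rasl11a, a Ras-like small GTPase, had a slope of -1.04 ± 0.16 (adjusted p = 0.00228) and Srpx, a sushi-repeat protein, one of -0.97 ± 0.14 (adjusted p = 0.00144).

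Il6, Lif, Tnfaip6 and Hgf were the members of the cytokine list that fell. Il6 (chr5:30013114-30019981, plus strand, mm10), the pleiotropic inflammatory cytokine, was at 87.4 CPM in uninjured cells and at 1919, 656, 1394, 524, 995, 859, 162, 641 and 651 CPM on the 9 DSS days in order, with 191 CPM in Il10-/- cells. Every DSS library but day 18 stood above both the uninjured and the Il10-/- library, and day 18, a fresh library, lay between them. Il6 fell by 1.20 ± 0.18 per 10 days (adjusted p = 0.00201). It lost its call only with no batch term, and within the 6 frozen libraries its slope was -0.98 (adjusted p = 8.5e-06). With cells of at least 2000 UMIs thinned to 2000, an Il6 UMI was seen in 9.09% of uninjured cells, 57.4% on day 6, 40.7% on day 23 and 15.2% of Il10-/- cells. Among Adamdec1/Bmp4 cells the shares were 6.62%, 20.3%, 24.6% and 19.7%.

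Lif (chr11:4257557-4272514, plus strand, mm10), a cytokine of the interleukin 6 family, had the steepest fall, -3.17 ± 0.42 (adjusted p = 0.015). It was at 3.69 CPM in uninjured cells and at 340.3, 63.6, 249, 82.8, 86.5, 24.6, 15.3, 9.54 and 9.57 CPM on the 9 DSS days in order, and at 10.1 CPM in Il10-/- cells. Its call was lost without day 6, day 18 or day 23 (adjusted p up to 0.0887). Ptgs2, the inducible prostaglandin synthase, was at 48.7 CPM in uninjured cells and at 1543, 653, 1122, 634, 699, 417, 139, 339 and 279.9 CPM on the same days (slope -1.72 ± 0.18, adjusted p = 0.000302), and lost its call only with no batch term. Tnfaip6 (-0.67 ± 0.15, adjusted p = 0.0212) and Hgf, the hepatocyte growth factor (-0.89 ± 0.19, adjusted p = 0.0209), fell as well. Tnfaip6 lost its call without day 6, day 18 or day 19 (adjusted p up to 0.177) and Hgf without day 6, day 9, day 18, day 19 or day 23 (adjusted p up to 0.169).

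Over the cytokine list, 15 of 17 genes were tested, and 11 did not pass. The 4 that fell were Il6, Lif, Tnfaip6 and Hgf (background 1.42% falling), and none rose. The median slope was -1.20 against -0.0039 over all genes tested. With no batch term 2 of the 15 fell, and within the 6 frozen libraries 9 did. Members that were high on day 6 without passing the test were Saa3 (-2.37 ± 0.61, adjusted p = 0.118), Csf3 (-2.25 ± 0.46, adjusted p = 0.062), Ereg (-2.32 ± 0.51, adjusted p = 0.0859) and Il11, a cytokine of the same family (-2.64 ± 0.66, adjusted p = 0.113). Among the chemokine genes, 15 of 18 were tested, with a median slope of -0.32. None fell by the test, Cxcl5 included (-2.69 ± 0.56, adjusted p = 0.0715), and Ackr4 rose (background 1.14% rising). Neutrophil markers, of which 6 were tested and 0 called, had a median slope of -1.61 in these cells, and the part of carried-over neutrophil RNA in the cytokine trends was not tested. The cytokine list also fell in Adamdec1/Bmp4 cells, where 8 of 17 tested members fell (background 3.07% of 7985 genes) and 0 rose, with a median slope of -0.81. On day 6 the list summed to 15738 CPM in Pi16/Pcolce2 and 16241.5 CPM in Adamdec1/Bmp4 cells.

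Other genes that fell in Pi16/Pcolce2 cells are set out with their dependence on single libraries. Thbs1, the matricellular protein thrombospondin 1, had a slope of -0.90 ± 0.16 (adjusted p = 0.00807, lost without day 6 or day 18, adjusted p up to 0.141). Procr, the protein C receptor, had -1.26 ± 0.23 (adjusted p = 0.0189, lost without day 6, day 9, day 18 or day 23, adjusted p up to 0.148), and Nid2, a basement membrane nidogen, -1.72 ± 0.29 (adjusted p = 0.0032, lost without day 18, adjusted p = 0.0663). Dio2, the deiodinase that activates thyroid hormone, had -1.32 ± 0.26 (adjusted p = 0.0158, lost without day 6, day 19 or day 23, adjusted p up to 0.134). Fem1b, a ubiquitin ligase subunit, had -1.25 ± 0.20 (adjusted p = 0.00405, lost without day 6, adjusted p = 0.0502). Mcoln2, a lysosomal cation channel, had -1.22 ± 0.26 (adjusted p = 0.025, lost without day 9, day 16, day 18 or day 23, adjusted p up to 0.19, and within the 6 frozen libraries, adjusted p = 0.0697). Adhfe1, a metabolic dehydrogenase, had -1.95 ± 0.36 (adjusted p = 0.0063, lost without day 7 or day 18, adjusted p up to 0.138, and within the 6 frozen libraries, with a slope of -1.13 and an adjusted p of 0.213), and March3, a membrane-bound ubiquitin ligase, -1.36 ± 0.33 (adjusted p = 0.0377, lost without day 6, day 7, day 9, day 16, day 18 or day 19, adjusted p up to 0.246). Of the metalloproteinases and inhibitors, 18 of 21 were tested. Of these, 3 fell (Adamts9, Adamts1 and Plaur, background 1.42% falling) and 2 rose (Timp2 and Timp3, background 1.14% rising). With each of the 9 libraries left out in turn, Adamts1 lost its call in 6 fits (adjusted p up to 0.142). Plaur and Timp2 lost theirs in 7 (adjusted p up to 0.214 and 0.244). With no batch term 1 of the 18 fell and 0 rose.

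The genes that rose and kept their call in all 17 alternatives were Igfbp6, Pltp, Cd55, Gdf10 and Adamtsl5. Igfbp6, a binding protein for insulin-like growth factor 2, was at 2162 CPM in uninjured cells, 316, 424, 425, 553, 655, 799, 939.6, 799 and 1072 CPM on the 9 DSS days in order and 1776 CPM in Il10-/- cells (slope 0.92 ± 0.12, adjusted p = 0.000669). Every DSS library stood below the uninjured and Il10-/- libraries, with day 6 lowest and day 23 highest. Pltp, the phospholipid transfer protein, was at 139 CPM in uninjured cells, 30.3, 41.6, 32.7, 32.0, 64.0, 139.5, 124, 143 and 182 CPM on the DSS days and 212 CPM in Il10-/- cells (slope 1.54 ± 0.22, adjusted p = 0.00405). Days 6 to 11 formed a low group, and days 16, 19 and 23 reached or passed the uninjured level. Cd55, which blocks complement on the cell surface, had 482, 961 and 1465 CPM in the lowest, median and highest DSS library and 962 CPM in uninjured cells (slope 0.88 ± 0.15, adjusted p = 0.00292). Gdf10 rose above its uninjured 29.5 CPM, with 32.9 CPM on day 6 and 113 CPM on day 23 (slope 0.85 ± 0.13, adjusted p = 0.00154), and Adamtsl5, an ADAMTS-like secreted protein, had a slope of 1.22 ± 0.19 (adjusted p = 0.00201).

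**Figure D2:**
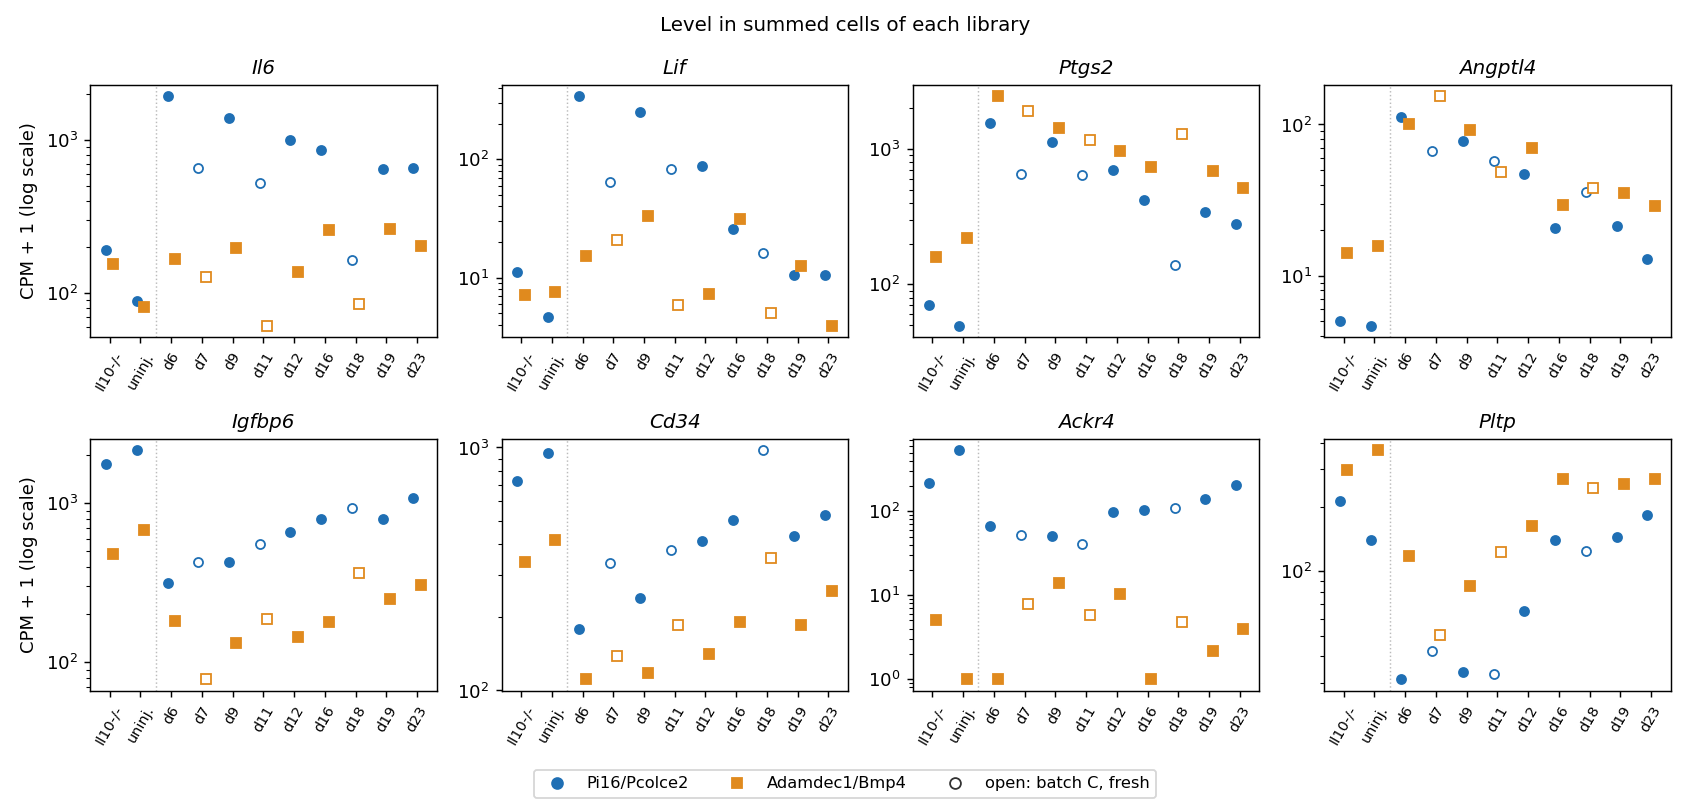
Levels of 8 genes in the summed cells of each library, in CPM plus 1 on a log axis, for Pi16/Pcolce2 (circles) and Adamdec1/Bmp4 fibroblasts (squares), with open symbols for the fresh batch C libraries. Il6, Lif, Ptgs2 and Angptl4 run downward over the DSS days in Pi16/Pcolce2 cells, and Igfbp6, Cd34, Ackr4 and Pltp run upward from low values on days 6 to 11. On day 6 Il6 stands at 1919 CPM in Pi16/Pcolce2 and 167 CPM in Adamdec1/Bmp4 cells.

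Cd34 was at 949 CPM in uninjured cells, 178, 334, 238, 379, 412, 501, 975, 432 and 528 CPM on the DSS days and 728 CPM in Il10-/- cells (slope 0.96 ± 0.16, adjusted p = 0.00337). It lost its call only with no batch term. With thinning, a Cd34 UMI was found in 78.6% of uninjured cells, in 30.5% of day 6 cells, in 65.0% of day 23 cells and in 74.7% of Il10-/- cells. Ackr4 was at 537 CPM in uninjured cells, 66.5, 51.6, 49.4, 39.7, 98.1, 102, 108, 139 and 203 CPM on the DSS days and 219 CPM in Il10-/- cells (slope 0.97 ± 0.16, adjusted p = 0.00383, lost without day 23, adjusted p = 0.0515). No DSS library reached its uninjured level.

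Gli1 and Wnt10b had the steepest rises of the genes named. Gli1, a transcription factor and target of hedgehog signalling, was at 36.1 CPM in uninjured cells, 0.842, 1.01, 3.98, 6.58, 8.32, 16.4, 19.9, 10.9 and 17.5 CPM on the DSS days and 25.8 CPM in Il10-/- cells, with a single count on day 6 (slope 2.25 ± 0.42, adjusted p = 0.00973). Its call was lost without day 6 or day 18 (adjusted p up to 0.136). Wnt10b, a Wnt ligand, was at 38.0 CPM in uninjured cells, 2.12, 7.48 and 21.3 CPM in the lowest, median and highest DSS library and 31.8 CPM in Il10-/- cells (slope 1.97 ± 0.42, adjusted p = 0.0272). Its call was lost with no batch term, without day 6, day 7, day 9, day 18 or day 19 (slope down to 1.18, adjusted p up to 0.305) and within the 6 frozen libraries (slope 1.16, adjusted p = 0.0807). Efhd1 rose with a slope of 1.76 ± 0.31 (adjusted p = 0.00512, lost without day 18, adjusted p = 0.154). In the Wnt and crypt niche list, 14 of 18 genes were tested, and the median slope was -0.23. Wnt10b and the Wnt modulator Dkk3 rose (background 1.14% rising) and Ptgs2 fell (background 1.42% falling). With no batch term none of the 14 rose or fell. Grem1, a BMP antagonist that supports crypt stem cells, did not pass the test for a trend (-0.25 ± 0.61, adjusted p = 0.927) but stood at 55.0, 462 and 103 CPM in the fresh libraries of days 7, 11 and 18, at 417 to 678 CPM in the frozen DSS libraries and at 45.7 CPM in uninjured cells.

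Further genes rose. Bhlhe41 and Nr1d1, repressors of the circadian clock, had slopes of 1.25 ± 0.21 (adjusted p = 0.00337) and 1.12 ± 0.21 (adjusted p = 0.0195). Bhlhe41 lost its call only with no batch term and Nr1d1 with no batch term, without day 6, day 18 or day 19 (adjusted p up to 0.132) and within the 6 frozen libraries (adjusted p = 0.0556). Nr1d1 was at 18.1, 36.0 and 50.5 CPM in the fresh libraries of days 7, 11 and 18 and at 46.2 to 218 CPM in the frozen ones, and no collection time is given in the labels. Tppp3, a tubulin-bundling protein, had a slope of 1.18 ± 0.20 (adjusted p = 0.00807, lost without day 6, adjusted p = 0.0536), and Adgrg2, an adhesion receptor, 1.16 ± 0.22 (adjusted p = 0.00737, lost without day 6 or day 18, adjusted p up to 0.119). Timp3, an inhibitor of metalloproteinases, had 1.33 ± 0.28 (adjusted p = 0.0454, lost without day 6, day 7, day 9, day 11, day 16, day 18 or day 19, adjusted p up to 0.174). Pla2g2e, a secreted phospholipase, had 1.26 ± 0.30 (adjusted p = 0.0313, lost without day 6, day 9, day 16, day 18, day 19 or day 23, adjusted p up to 0.232), and Lgi3, a secreted leucine-rich repeat protein, 1.40 ± 0.33 (adjusted p = 0.0295, lost without day 6, day 7, day 9, day 16, day 18 or day 19, adjusted p up to 0.318, and within the 6 frozen libraries, adjusted p = 0.187). C4b, a complement component, was at 67.1 CPM in uninjured cells, 461 CPM on day 6 and 1785 CPM on day 23 (slope 0.86 ± 0.17, adjusted p = 0.0158, lost without day 6, day 9 or day 23, adjusted p up to 0.153).

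Of the 20 adventitial genes, 18 were tested, with a median slope of 0.63, and 9 did not pass. The 8 that rose were Cd34, Mfap5, Igfbp6, Cd55, Cd248, Efhd1, Timp2 and Creb5, and Procr fell. With each of the 9 libraries left out in turn, Mfap5 and Cd248 lost their call in 5 fits (adjusted p up to 0.216 and 0.147). Creb5 lost it in 6 and Timp2 in 7 (adjusted p up to 0.212 and 0.244). Over all 8945 genes tested, 1.14% rose and 1.42% fell. With no batch term 3 of the 18 adventitial genes rose and none fell. Some members are low, and Dpp4, whose product marks such cells in many mouse tissues, was not tested, at 0 to 14.5 CPM in DSS cells and 15.9 CPM in uninjured cells. Against the uninjured library the median of the list was -1.14, -0.90, -1.30 and -1.21 log2 units on days 6, 7, 9 and 11, and -0.37 on day 23. In Adamdec1/Bmp4 cells 8 of 17 tested members rose (background 3.19% of 7985 genes rising and 3.07% falling) and 0 fell, with a median slope of 0.63. By the test of slope differences given below, 0 of 19 members had a higher slope in Pi16/Pcolce2 cells and 1 a lower one. The median difference was 0.0006, and 0.196% and 0.401% of all 10218 genes passed in these directions. Among the lists without a call in either direction were the myofibroblast (10 tested, median slope -0.51), cell cycle (6 tested, -0.48) and retinoid (7 tested, -0.03) genes. Within the 6 frozen libraries 5 of the 10 myofibroblast, 2 of the 6 cell cycle and 1 of the 7 retinoid genes fell, and none rose. Columnar epithelial markers rose for 3 of 10 tested members in Pi16/Pcolce2 cells (Krt18, Muc2 and Lgals4, background 1.14% rising). Their median slope was 0.68, and their part in the rising genes was not tested.

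**Figure D3:**
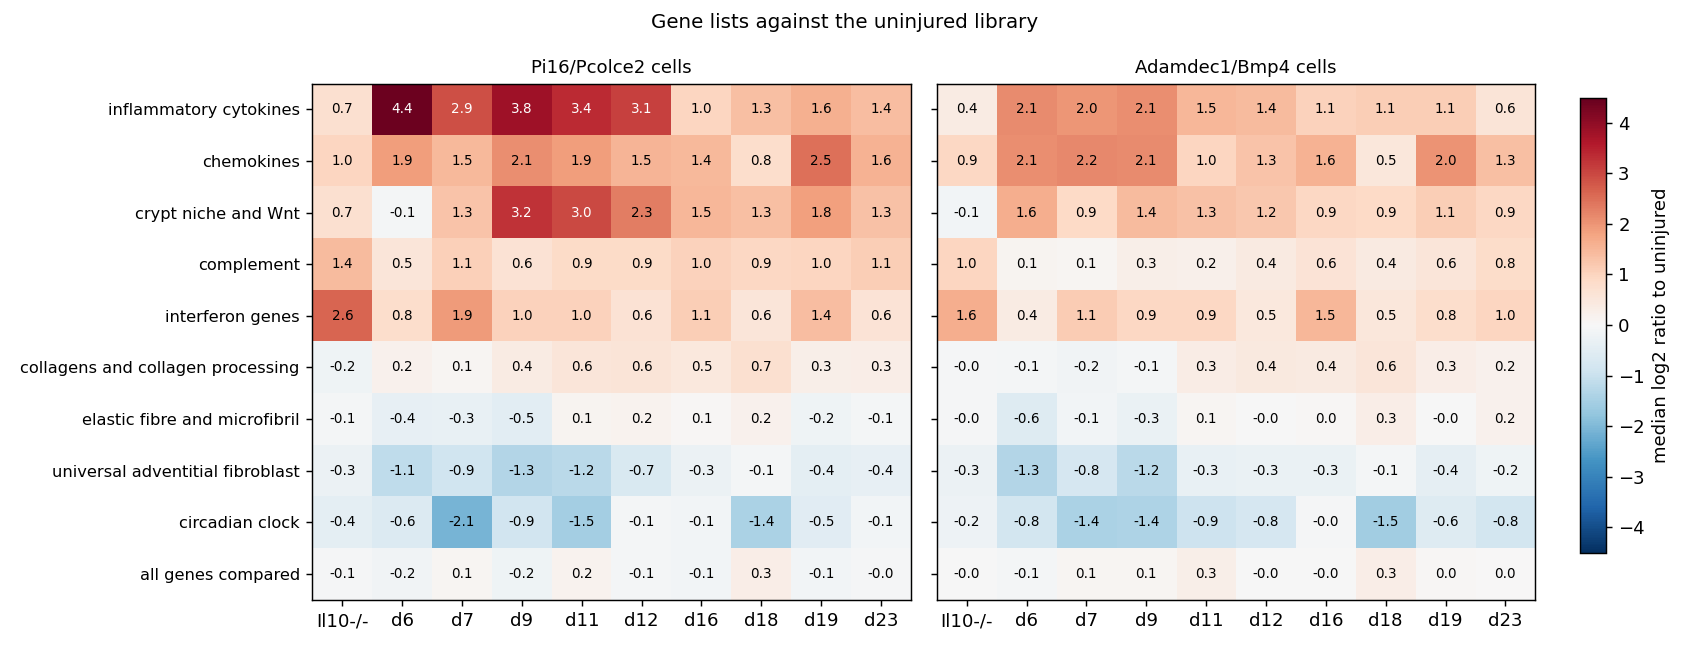
Median log2 ratio of each gene list to the uninjured library in Pi16/Pcolce2 (left) and Adamdec1/Bmp4 fibroblasts (right), for Il10-/- and the DSS days; red is above and blue below uninjured, and the bottom line gives all genes compared. A gene entered a square once either library of the pair held 20 counts of it, so deeper libraries hold more genes. The cytokine list is highest in Pi16/Pcolce2 cells on day 6 (4.41), and the interferon list in Il10-/- (2.62).

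Slopes over the days differed between Pi16/Pcolce2 and Adamdec1/Bmp4 cells for a small set of genes, among them collagen, elastic fibre and glycoprotein genes whose slope was lower in Pi16/Pcolce2 cells. The difference itself was tested as a type-by-day term in edgeR, with library as a block, over 9 libraries and both types. Of 10218 genes, 61 (0.597%) passed, 20 with a higher (0.196%) and 41 with a lower slope (0.401%) in Pi16/Pcolce2 cells, and 1015 had an unadjusted p under 0.05. The count was 38 without day 18, 20 of them shared with the 61, and 155 without day 11. Of the 56 with a slope in both types, 43 had opposite signs. The genes were picked for differing slopes, which favours opposite signs, so this count is a description. Of the genes that passed, 11 were called in the Pi16/Pcolce2 trend and 29 in the Adamdec1/Bmp4 trend. Zfp469, Rasl11a, Mfap5, Lox, Col3a1 and Fn1 were the 6 of 30 genes followed that kept their call in every alternative.

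Col3a1, the chain of type III collagen, had a slope of -0.45 ± 0.18 in Pi16/Pcolce2 cells and 0.35 ± 0.20 in Adamdec1/Bmp4 cells, neither called (adjusted p = 0.203 and 0.403), with a difference of -0.78 ± 0.10 (adjusted p = 0.000474). Its levels ran from 10219.8 to 27258 CPM in DSS cells, with the top on day 11, and were 5427 CPM in uninjured cells. Fn1, fibronectin, had slopes of 0.33 ± 0.14 and 1.05 ± 0.21 in the same order (difference -0.71 ± 0.12, adjusted p = 0.00382). Mfap5, a microfibril protein, had positive slopes in both types, 0.80 ± 0.19 and 2.07 ± 0.25 (difference -1.24 ± 0.17, adjusted p = 0.000588). Lox, the enzyme that crosslinks collagen and elastin, had -0.98 ± 0.21 and 0.19 ± 0.21 (difference -1.16 ± 0.16, adjusted p = 0.000588). The Pi16/Pcolce2 trends of Mfap5 and Lox were called on their own (adjusted p = 0.041 and 0.0345). These calls were lost with no batch term and in 5 and 7 of the 9 fits with a library left out. Pi16/Pcolce2 cells held 398 CPM of Lox on day 6 and 175 CPM on day 23, and Adamdec1/Bmp4 cells 89.0 and 144 CPM on the same days.

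Col8a1, a short-chain collagen, was at 499 to 1101 CPM in DSS Pi16/Pcolce2 cells and 25.6 to 176 CPM in DSS Adamdec1/Bmp4 cells, with slopes of -0.48 ± 0.15 and 1.33 ± 0.35 (difference -1.69 ± 0.20, adjusted p = 0.000474). The levels of the types did not overlap, and the difference lost its call only with no batch term. Rasl11a (-1.68 ± 0.22, adjusted p = 0.00141) and Srpx (-1.29 ± 0.23, adjusted p = 0.00438, lost only with no batch term) fell in Pi16/Pcolce2 cells with slopes of 0.67 ± 0.13 and 0.40 ± 0.23 in Adamdec1/Bmp4 cells. Vegfd, a lymphatic growth factor (-1.32 ± 0.26, adjusted p = 0.0105), lost its call without day 7 or day 18 (adjusted p up to 0.403). The prostaglandin E receptor Ptger1 (-1.90 ± 0.37, adjusted p = 0.0102) lost it without day 18 (adjusted p = 0.298), Adamtsl1 (-1.26 ± 0.28, adjusted p = 0.031) without day 6, day 9, day 18 or day 19 (adjusted p up to 0.48), and the adhesion molecule Cadm1 (-2.13 ± 0.48, adjusted p = 0.0381) without day 6, day 7, day 18, day 19 or day 23 (difference as small as -1.12, adjusted p up to 0.836) and with no batch term. Within the frozen libraries the differences of Vegfd (-0.78, adjusted p = 0.573), Ptger1 (-1.43, adjusted p = 0.289), Adamtsl1 (-1.46, adjusted p = 0.285) and Cadm1 (-1.23, adjusted p = 0.793) did not pass. Apcdd1, an inhibitor of Wnt signalling (-2.89 ± 0.43, adjusted p = 0.00185), lost its call without day 18 (-1.25, adjusted p = 0.787).

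On the higher side, Gas1, a co-receptor for hedgehog ligands, was at 102, 357, 206, 576, 358, 361, 706, 368 and 360.4 CPM on the DSS days in Pi16/Pcolce2 cells, against 78.3 CPM on day 6 and 7.33 CPM on day 23 in Adamdec1/Bmp4 cells (slopes 0.79 ± 0.22 and -1.56 ± 0.24, difference 2.43 ± 0.33, adjusted p = 0.00337). Its levels in the types did not overlap, and it lost its call only with no batch term. Zfp469, a zinc finger protein, had a difference of 2.09 ± 0.34 (adjusted p = 0.00246). Il1rl1, the receptor for interleukin 33, was at most 23.6 CPM in Pi16/Pcolce2 cells, whereas Adamdec1/Bmp4 cells had 1961 CPM on day 6 and 17.6 CPM on day 23 (difference 2.19 ± 0.46, adjusted p = 0.0336, lost without day 7, day 12, day 16, day 18 or day 19, adjusted p up to 0.166). The ligand Il33 was at 233 to 756 CPM in DSS Pi16/Pcolce2 cells and 2.19 to 56.9 CPM in DSS Adamdec1/Bmp4 cells, and the difference of its slopes did not pass the test (-0.14 ± 0.28, adjusted p = 0.996). Nrep (1.64 ± 0.28), Hhipl1 (1.42 ± 0.22), Abcc9, a potassium channel subunit (1.25 ± 0.27), Scara5, a ferritin receptor (1.16 ± 0.23), and Epn2, an endocytic adaptor (1.13 ± 0.21), had adjusted p of 0.00386, 0.00141, 0.0249, 0.0249 and 0.00725. Each of these 5 lost its call without day 18, and Nrep also without day 7, Abcc9 without days 6, 7 and 23, and Scara5 without days 6, 9, 12 and 16 (adjusted p up to 0.221, 0.0529, 0.298, 0.161 and 0.0552). Within the frozen libraries none of these 5 passed (adjusted p of 0.0502 for Epn2 to 0.357 for Nrep), nor did Il1rl1 (adjusted p = 0.227), and Nrep, Abcc9 and Il1rl1 also lost their call with no batch term.

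**Figure D4:**
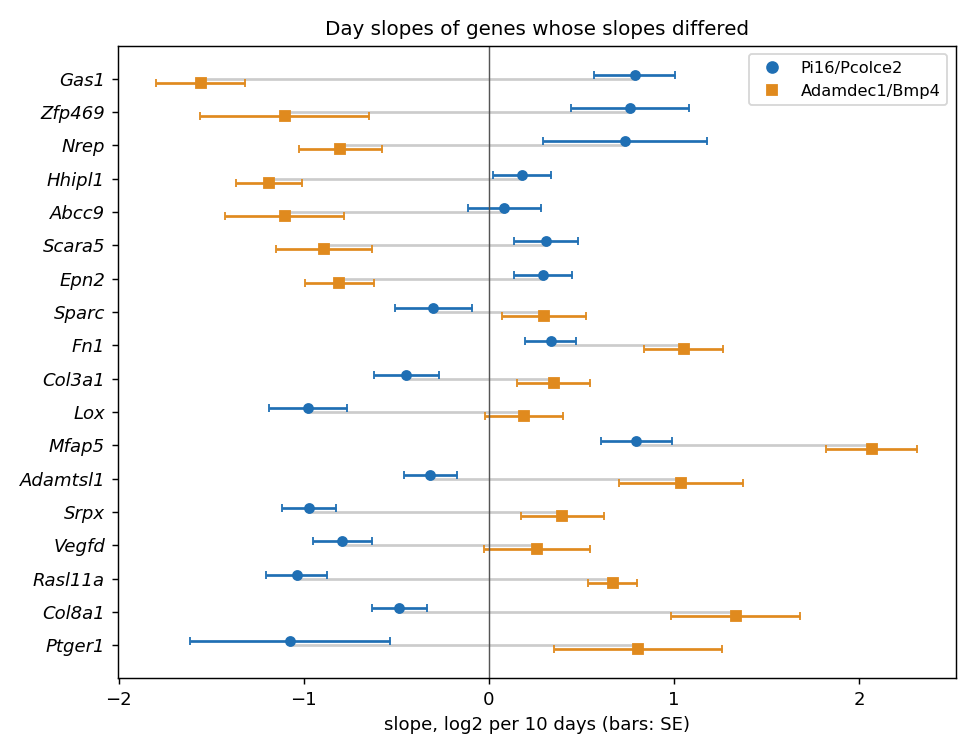
Slopes over the 9 DSS libraries, in log2 per 10 days with standard errors as bars, in Pi16/Pcolce2 (blue circles) and Adamdec1/Bmp4 fibroblasts (orange squares) for 18 genes whose slopes differed, chosen after their values were seen. From Sparc down, Pi16/Pcolce2 cells lie left of Adamdec1/Bmp4 cells; Gas1 stands at 0.79 and -1.56.

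By list, the slope difference passed in the lower direction for 4 of 18 elastic fibre, 2 of 24 collagen and 4 of 16 glycoprotein genes tested. The share over all 10218 genes was 0.401%. Median differences were -0.38, -0.35 and -0.69 in the same order, against -0.01 over all genes. The median slopes themselves were 0.16, -0.10 and 0.06 in Pi16/Pcolce2 cells and 0.53, 0.24 and 0.83 in Adamdec1/Bmp4 cells. In Adamdec1/Bmp4 cells 7 of 17, 3 of 24 and 6 of 15 tested members rose (background 3.19%), and 0, 2 and 0 fell (background 3.07%). In Pi16/Pcolce2 cells 1 of 17, 0 of 24 and 1 of 16 rose (background 1.14%), and 2, 2 and 1 fell (background 1.42%). In the higher direction the slope difference passed for 2 of 20 metalloproteinases and inhibitors, against 0.196% of all genes. These were Mmp2 and Mmp14, both lost with no batch term and without days 6 and 19, each left out in turn. Il6, with slopes of -1.20 ± 0.18 in Pi16/Pcolce2 and 0.07 ± 0.25 in Adamdec1/Bmp4 cells, did not pass (-1.36 ± 0.31, adjusted p = 0.127), while Tnfaip6 did (-0.69 ± 0.13, adjusted p = 0.00848, lost with no batch term and without day 18 or day 23, adjusted p up to 0.0835). Against the unnamed fibroblasts, over the 7 DSS libraries with at least 20 cells of both types, 2 of 6807 genes (0.0294%) passed, and 231 had an unadjusted p under 0.05. One is a predicted gene and the other Ywhab, a 14-3-3 adaptor (difference 3.67 ± 0.81, adjusted p = 0.0365), and neither was called without day 9, 18, 19 or 23.

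In the Il10-/- library, Pi16/Pcolce2 cells stood above every DSS library for 13 of the 17 interferon and antigen presentation genes compared, against a background of 1369 of 9140 genes (15%). Against uninjured cells, 250 of 9140 genes (2.74%) were at least 4-fold higher and 27 (0.295%) at least 4-fold lower. Of 18 interferon genes, 17 could be compared and 14 were at least 4-fold higher, with a median log2 ratio of 2.62 against -0.05 over all genes compared. In the DSS libraries 1 to 9 members reached 4-fold (background 1.27% on day 16 to 7.36% on day 11), with medians of 0.56 (day 18) to 1.93 (day 7), and in Adamdec1/Bmp4 cells of the Il10-/- library 5 of 16 did (background 1.95%), with a median of 1.64.

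Class I genes were among those above the DSS range. B2m, the light chain of class I molecules, was at 6963 CPM in Il10-/- cells, 669, 1246 and 1930.4 CPM in the lowest, median and highest DSS library and 1360.3 CPM in uninjured cells, a ratio of Il10-/- to uninjured of 5.12-fold (4.94 to 5.30) with an exact Poisson 95% interval in parentheses, as below. H2-K1, a class I heavy chain, was at 2259 CPM in Il10-/- cells, 451 to 852 in DSS cells and 325 in uninjured cells, a ratio to uninjured of 6.95-fold (6.48 to 7.46). H2-D1 was at 3160.0, 426 to 816 and 686 CPM in the same order, a ratio to uninjured of 4.61-fold (4.38 to 4.84). For all 3 the Il10-/- value lay above every DSS value. H2-Q6 (138 CPM against 0.369, 1 count, in uninjured cells) belongs with them to a family of similar genes among which the counting could split reads.

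So were Psmb8, Psmb9 and Tap1. Psmb8, an immunoproteasome subunit, was at 292 CPM in Il10-/- cells, 39.4 to 86.5 CPM in DSS cells and 29.1 CPM in uninjured cells, a ratio to uninjured of 10.0-fold (7.96 to 12.8). Its partner Psmb9 was at 115, 9.15 to 36.3 and 7.75 CPM, a ratio to uninjured of 14.8-fold (9.55 to 24.2), and the peptide transporter Tap1 at 91.8, 17.5 to 50.6 and 11.4 CPM, a ratio to uninjured of 8.02-fold (5.54 to 12.0). Isg15, a ubiquitin-like modifier, was at 111 CPM in Il10-/- cells, 15.5 to 218 CPM in DSS cells, the top on day 19, and 14.8 CPM in uninjured cells, a ratio to uninjured of 7.51-fold (5.42 to 10.7). Ifit3, which binds viral RNA complexes, was at 49.2 CPM, 4.16 to 91.3 CPM, again highest on day 19, and 10.7 CPM, a ratio to uninjured of 4.60-fold (3.09 to 7.08). Gbp2, a guanylate-binding protein, was at 166, 32.7 to 163 and 25.5 CPM, a ratio to uninjured of 6.52-fold (5.07 to 8.49). For Isg15 and Ifit3 the Il10-/- value lay inside the DSS range, and for Gbp2 just above it. Cells other than fibroblasts were also high in the Il10-/- library, at 4507 CPM of B2m, 517 of Psmb8 and 207 of Isg15, against 970.4, 74.1 and 32.4 CPM in the uninjured library, and the part of carried-over RNA was not tested.

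**Figure D5:**
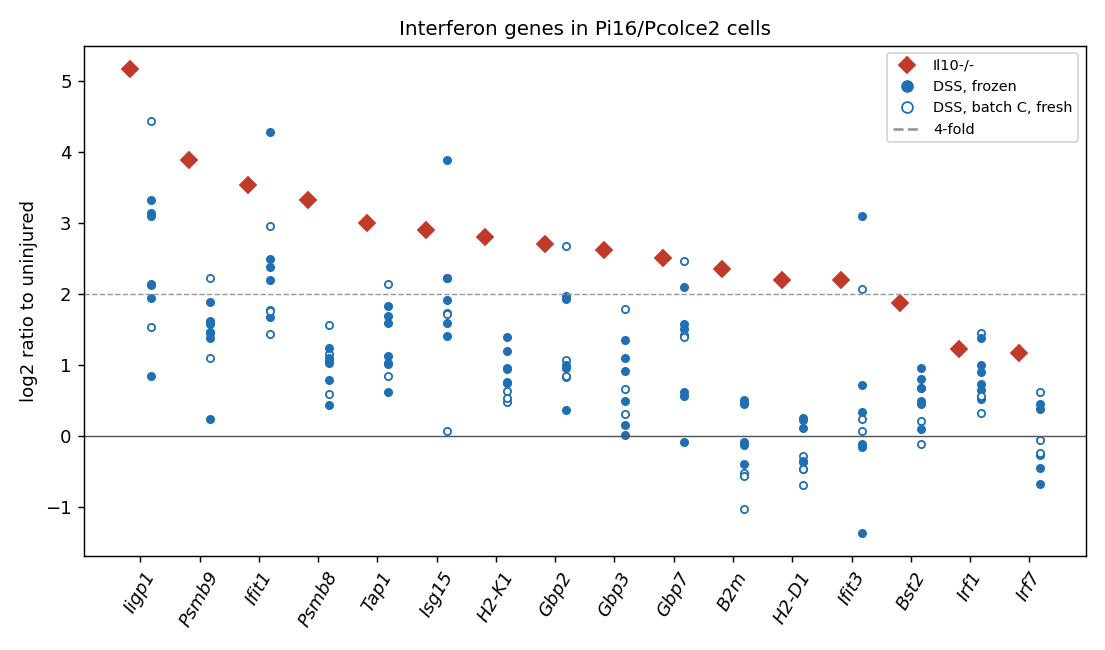
Log2 ratio to the uninjured library of 16 of the 17 interferon genes compared in Pi16/Pcolce2 cells, for Il10-/- (red diamonds) and the DSS libraries (circles, open where fresh). The dashed line marks 4-fold. Il10-/- lies above every DSS library for Psmb8, Tap1, H2-K1, B2m and H2-D1 and inside the DSS range for Isg15, Ifit1 and Ifit3.

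Type I interferons act through the interferon-stimulated response element, whose core was searched as GAAA, any 2 bases and GAAA on both strands in the 250 bases before each gene start. It was found in 8 of the 16 interferon genes with a promoter in the RefSeq table (50%), in 3.00% of 19298 promoters of genes in the matrix and in 2.58% of the 7135 genes tested in Pi16/Pcolce2 cells that had one. The promoters of Isg15 (chr4:156200819-156201068, minus strand), Ifit3 (chr19:34583279-34583528, plus strand) and Gbp2 (chr3:142620413-142620662, plus strand) are printed 5' to 3' from RefSeq, build GRCm38.p6, as the genes described above that hold it, with matches in capitals (TTTC, any 2 bases and TTTC is the core on the other strand, and the matches in Isg15 overlap).
Isg15: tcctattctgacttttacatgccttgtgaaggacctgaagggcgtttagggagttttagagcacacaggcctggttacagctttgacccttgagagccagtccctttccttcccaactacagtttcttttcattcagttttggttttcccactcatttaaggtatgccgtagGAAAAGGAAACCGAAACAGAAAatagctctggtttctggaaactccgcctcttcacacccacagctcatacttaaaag
Ifit3: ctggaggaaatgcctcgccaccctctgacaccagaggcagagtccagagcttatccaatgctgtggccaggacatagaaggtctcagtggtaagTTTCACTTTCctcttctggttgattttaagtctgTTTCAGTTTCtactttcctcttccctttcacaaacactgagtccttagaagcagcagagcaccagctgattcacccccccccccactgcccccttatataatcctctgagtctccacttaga
Gbp2: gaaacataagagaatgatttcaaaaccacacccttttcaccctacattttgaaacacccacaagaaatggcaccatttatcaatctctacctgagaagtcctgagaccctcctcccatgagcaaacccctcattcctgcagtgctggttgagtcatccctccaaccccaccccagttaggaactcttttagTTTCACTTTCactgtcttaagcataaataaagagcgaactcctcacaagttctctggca
A match is a description of these letters and not evidence of binding. Psmb9, which was 14.8-fold higher in Il10-/- cells, had no match in its 250 bases. For the genes of the DSS response, the nuclear factor kappa B core of GGG, any 5 bases and CC, searched on both strands, did not set a group apart: it was in 58.3% of promoters of genes that fell with day, 61.0% of those that rose and 63.1% of all genes tested.

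Outside the interferon list, Saa3, Hp, Chil1, Cxcl5 and Ifi47 were among the 8 genes highest in Il10-/- over uninjured cells. Saa3 was at 852 CPM against 1 count in uninjured cells, within its DSS range of 552 to 9830.3 CPM. Hp, haptoglobin, was at 334 CPM in Il10-/- cells, 93.3 to 640.5 CPM in DSS cells and 1.11 CPM (3 counts) in uninjured cells. Chil1, a chitinase-like protein, was at 125 CPM in Il10-/- cells and at most 14.8 CPM in DSS cells, and with 0 counts in uninjured cells it was at least 113-fold higher against a floor of 3 counts. Ifi47, an interferon-gamma-induced GTPase, was at 103 CPM in Il10-/- cells, 11.2 to 63.1 CPM in DSS cells and 1.11 CPM (3 counts) in uninjured cells. Cxcl5 was at 72.1 CPM in Il10-/- cells. Of the cytokine list, 2 of 13 genes compared were at least 4-fold higher in Il10-/- cells, with a median log2 ratio of 0.71, against 4.41 on day 6.

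The 8 genes lowest in Il10-/- relative to uninjured cells were Angptl7, Ramp1, Tac1, Musk, Mcm6, Fam131b, Tanc2 and the muscle filament gene Des. Angptl7 was at 12.2 CPM in Il10-/- cells and 63.1 CPM in uninjured cells, and Ramp1, a subunit of the receptor for calcitonin gene-related peptide, at 27.5 and 136 CPM. Tac1, the substance P precursor, was at 0.579 and 11.4 CPM, and Musk at 1.16 and 10.7 CPM. Tac1, Musk, Mcm6, Fam131b and Tanc2 had 2 to 5 counts in Il10-/- cells. The adventitial list was near its uninjured level, with a median log2 ratio of -0.25 and 0 of 20 genes differing 4-fold.

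A pair of genes bears on the Il10-/- library itself. Il10 transcript was counted in it, with 270 counts in 115 of 557 Pi16/Pcolce2 cells, against 0 to 5 counts in these cells of any other library. The counts were not particular to these fibroblasts, with 1365 over all cells of the Il10-/- library. There an Il10 UMI was seen in 30% of lymphatic cells, 29.9% of neutrophils and 12.6% of Adamdec1/Bmp4 fibroblasts. It was seen in 2.14% of Car4 epithelial cells and 0% of dendritic cells. The labels do not give the deleted part of the gene, and a 3' tag outside it does not check the genotype. Xist, expressed from the inactive X chromosome of female cells, had 1049 counts in Il10-/- cells and 0 or 1 in Pi16/Pcolce2 cells of every other library. The labels give no sex, and sex cannot be told apart from genotype and age here.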

How the data were processed

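The authors deposited a count matrix, with the raw UMI count of every gene in every cell, and a table of cells with their types, library, pooled mice and batch label. Per the submitters' processing notes, Cell Ranger 3.0.0 and the mm10 build were used. Of 14 libraries, 11 were analysed; the other 3, with 12621 cells, are not used here. Placeholder features held 0.517% of counts and stayed out of all totals. No cells were removed and no doublet caller was run.

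Counts were summed per library and type and tested with edgeR 4.0.16 (quasi-likelihood, TMM scaling, filterByExpr, R 4.3.3) on day and batch label, with Benjamini-Hochberg adjustment over all genes. The type-by-day difference used library as a block. Pairs of single libraries were compared at 4-fold for genes with 20 counts or more in either library, with no test. There a count of 0 was set to a floor of 3 counts. For ratios between fibroblast types 0.5 counts were added instead. Ratio intervals are exact Poisson 95% intervals, which cover counting error only. Share trends used exact permutation tests (scipy 1.17.1). Gene positions are from GENCODE on mm10, and promoters from RefSeq. On simulated counts of 8945 genes the trend test recovered 75% of slopes of 1 and 100% of slopes of 2. Of its calls 5.91% were false. On simulated counts of 10218 genes the difference test recovered 42% and 92%, and 8.22% of its calls were false. Total UMIs were 7922350 to 87012379 per library.

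Named genes were the 12 steepest rising and 12 steepest falling trend calls at least as high as in other cells, the 8 highest and 8 lowest slope differences, the 12 highest and lowest between types, the 8 highest and lowest against uninjured, 2 to 4 members of a list and the 5 most like Pi16. Predicted, mitochondrial and ribosomal genes were counted only, and 1 interferon gene is not reported here by name. The members and gene lists were chosen with earlier results of these data known. Alternatives were DESeq2, other scaling, filters, cell sets and batch terms, and each library left out.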

Additional observations from a re-analysis of the deposited data

Results flagged for a closer look

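The following 17 genes drew attention because their slope over the DSS days, in log2 per 10 days, differed between Pi16/Pcolce2 fibroblasts and another fibroblast type by the test of the difference itself (edgeR, over 9 libraries, or 7 against the unnamed type). Against Adamdec1/Bmp4 fibroblasts the slope was higher in Pi16/Pcolce2 cells by 2.43 for Gas1, 2.19 for Il1rl1, 2.09 for Zfp469, 1.64 for Nrep, 1.42 for Hhipl1, 1.25 for Abcc9, 1.16 for Scara5 and 1.13 for Epn2. It was lower for the others, with differences of -2.89 for Apcdd1, -2.13 for Cadm1, -1.90 for Ptger1, -1.69 for Col8a1, -1.68 for Rasl11a, -1.32 for Vegfd, -1.29 for Srpx and -1.26 for Adamtsl1. Against the fibroblasts with no subtype name the difference was 3.67 for Ywhab. These genes are the extremes of the test, chosen after it was run. Zfp469 and Rasl11a kept their call under every alternative tried, and Gas1, Col8a1 and Srpx lost it only with no batch term.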

How the results depend on the processing

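No paired analysis was possible because each group is 1 library and carries no replicate number shared with another group. The 229 trend calls in Pi16/Pcolce2 cells became 369 with DESeq2's test (204 shared), 36 with no batch term (35 shared) and 373 over the 6 frozen libraries (172 shared), and ran from 67 to 506 with each library left out. The 61 slope differences against Adamdec1/Bmp4 cells became 141 with no filter on low counts and ran from 38 to 155 with each library left out. The 2 differences against unnamed cells became 0 with no filter, 0 with no batch term and 0 over the frozen libraries, and ran from 0 to 6 with each library left out. The alternative with at least 1000 UMIs per cell was not run against unnamed cells, since too few remained. The correlation of the fibroblast share with day (-0.243) ran from -0.452 without day 23 to 0.0502, a reversed sign, without day 6. The 122 genes that differed 4-fold between Pi16/Pcolce2 and Adamdec1/Bmp4 cells in every library became 77 with cells thinned to 2000 UMIs. Against uninjured cells, the 225 DSS and 277 Il10-/- genes became 146 and 130 with 50 counts in place of 20 and 117 and 117 with thinned cells. For all of these changes the cause was not tested. Of the single-gene values under an alternative, 974 kept their side of the threshold or moved by less than their spread, 131 kept their direction without passing and 40 moved. With 1 library per group, the variation between pools was not measured, and intervals on contrasts with the uninjured library cover counting error only.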
